A study of Gossypium hirsutum with 3 samples.

Results

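Cell wall genes, 7 in number, were followed on 3 arrays that set fiber initials of upland cotton against whole ovules. They were 3 genes of the cellulose synthase superfamily (Contig15578, Contig4481 and GhBM356396), 2 endoxyloglucan transferases (Contig12523 and Contig2607), the beta-D-xylosidase Contig2047 and the extensin-like gene Contig339. Spots were assigned to a gene where the gene name in the scanner file matched it. The 7 genes are 7 of 11144 names on the array, and all 7 passed the filter on dim probes. All 7 were listed in the table that the study drew up in part from these arrays, and they were chosen for this account with earlier results of the arrays known. GhBM356396 was put on the array beforehand as a gene of known expression, whereas the other genes were listed for how they differed on these arrays or against older fiber. Their ratios between the RNAs are therefore a description, and no p is given for a single member.

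Fiber and ovule RNA came from field grown cotton at 1 dpa (days post anthesis, counted from flower opening). Both groups were wild type and untreated, and the methods name the cultivars DES119 and ST4793R without saying which array held which. The methods describe polyribosomal RNA, bound to ribosomes and so in translation, while the source labels say total RNA. Fiber RNA came from initials knocked off frozen ovules of 50 bolls, which makes it a pool of many flowers, and ovule RNA came from intact ovules that still carried their initials. Each array carried both RNAs in different dyes, so that n = 3 counts arrays. Nothing says how the RNA codes map to harvests beyond the statement that replicates were picked on different days.

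The primary wall of a growing plant cell is a network of cellulose fibrils tethered by hemicelluloses and embedded in pectin. Cellulose synthases of the CesA family spin cellulose at the plasma membrane, while related cellulose synthase-like (Csl) enzymes build hemicellulose backbones in the Golgi. Members of the CslA group make mannans in Arabidopsis. Endoxyloglucan transferases (also called XET or XTH enzymes) cut xyloglucan chains and rejoin the ends, which lets the wall yield as the cell grows. Beta-D-xylosidases trim xylose from wall polysaccharides, and extensins are hydroxyproline-rich proteins that can be cross-linked into the wall. Cotton fibers lengthen over many days on a thin primary wall before they lay down a secondary wall of nearly pure cellulose.

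The direction of the ratios is not settled by the labels. By the labels, fiber was in Cy3 (green) on arrays 1 and 2 but in Cy5 (red) on array 3. By the RNA codes stored with the spots, array 2 alone had the SP2 RNA in red and the other arrays had it in green, so that the label of array 1 makes SP2 the fiber RNA and the labels of arrays 2 and 3 make it the ovule RNA. Arrays 1 and 2, which the labels orient alike, had a correlation of r = -0.580 between their ratios of red over green across genes (genes are no independent replicates). Once turned by the codes, the arrays had r = 0.580 (1 and 2), 0.521 (1 and 3) and 0.810 (2 and 3). Values are therefore given as SP2 RNA over SP1 RNA, and the marker genes described last were not used to say which RNA is fiber. If SP2 is the fiber RNA, the SP2 over SP1 values below are fiber over ovule as printed. The mean log2 ratios are then -2.36 for Contig15578, -1.97 for Contig2047 and -1.32 for Contig12523, and 1.61 for Contig2607, 1.23 for Contig339, 1.09 for Contig4481 and 0.55 for GhBM356396. If SP1 is the fiber RNA, every sign below turns, with the same sizes. The mean log2 ratio of fiber over ovule then becomes 2.36 for Contig15578, 1.97 for Contig2047 and 1.32 for Contig12523, and -1.61 for Contig2607, -1.23 for Contig339, -1.09 for Contig4481 and -0.55 for GhBM356396. Arrays 1 and 2 both bear the code SP2A and may share an RNA. If they do, the arrays are not independent replicates, although the SDs and tests below take them as such.

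Some probes of these genes were dim in the SP2 or the SP1 RNA. Probe 1 of Contig15578 had background-subtracted signals of 94.5, 128 and 60.0 in the SP2 RNA on arrays 1, 2 and 3. Probes 3 and 4 of Contig2047 had 107 and 117 in the SP2 RNA on array 1, and 66.4 and 69.2 on array 3. In the SP1 RNA, probe 1 of Contig4481 had 273, 102 and 72.8 on arrays 1, 2 and 3. The median background-subtracted signal of the gene spots lay between 182 and 249 in green and between 131 and 311 in red, and 86.5% to 95.3% of the gene spots were above background. The negative controls of array 1 varied more (SD of 102 in green) than those of array 2 (5.85) and array 3 (5.32). Green held the SP2 RNA on array 1. Every spot of the 7 genes was above background in both RNAs on all 3 arrays, and 0 were saturated. In green, the call above background rests on the deposited flag and not on the negative controls. In the fit over 11082 genes (limma, Benjamini-Hochberg adjusted p under 0.05), 12.3% of all genes were called, 3.95% as higher and 8.31% as lower in the SP2 RNA. Of the 7 genes 5 were called, with Contig4481 and Contig339 higher and Contig15578, Contig12523 and Contig2047 lower. The limits of the methods, 2 fold and 0.05, were also applied to the unadjusted p from limma. They were passed by 3 of the 7 as higher and by 3 as lower, beside 1.73% and 4.73% of all genes. On all 3 arrays 6 of the 7 had the same sign, beside 44.0% of all genes. Turned by the labels instead, the arrays gave 0 called members and 0.00% of all genes called (539 of 11082 at an unadjusted p under 0.05). The counts of the 7 genes turned by the codes follow from how the genes were chosen, and nothing is read from them. Turned by the labels, array 1 runs against the others by construction.

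**Figure D1:**
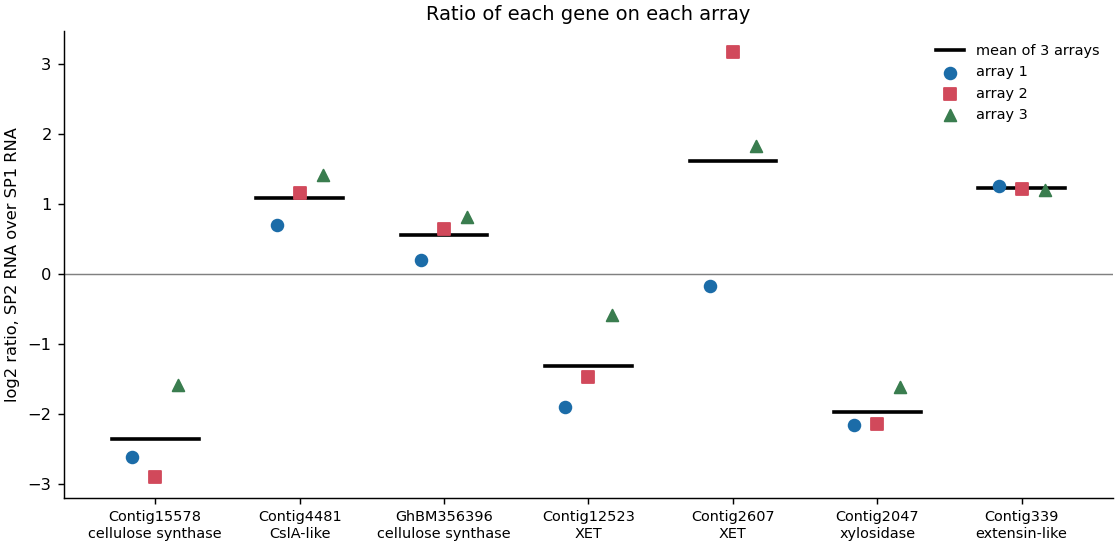
The log2 ratio of SP2 RNA over SP1 RNA (y axis) of each of the 7 genes is plotted by array, with the mean of 3 arrays as a black bar. The points of Contig339 nearly coincide, from 1.20 to 1.26, while those of Contig2607 spread from -0.16 to 3.17.

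The genes of the cellulose synthase superfamily went in opposite directions. Contig15578, whose best match was a putative cellulose synthase of Arabidopsis, had normalized signals of 449, 273 and 186 in the SP2 RNA on arrays 1, 2 and 3, against 2730.0, 2021 and 557 in the SP1 RNA. (A normalized signal is the background-corrected, loess-normalized intensity as a geometric mean over the probes of a gene. It is compared here between RNAs and not between genes. Signals were not scaled between arrays. Whether the ranges of the RNAs over arrays overlap is a description that ignores the pairing. The share of all genes without overlap was not counted.) The highest value in the SP2 RNA lay below the lowest in the SP1 RNA. Its log2 ratios were -2.60, -2.89 and -1.58, with a mean of -2.36 ± 0.69 (SD, n = 3), or 5.13-fold lower in the SP2 RNA, and 0.379% of the genes tested had a lower mean ratio. On array 3 the signal of the SP1 RNA and the size of the ratio were the smallest. The dyes of both RNAs were also dimmest there over all gene spots. The median background-subtracted signal of the SP1 dye was 131, against 311 on array 1 and 213 on array 2. That of the SP2 dye was 182, against 249 on array 1 and 270 on array 2. Whether this bears on the ratio was not tested.

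Contig4481 resembled CslA9 of rice, a cellulose synthase-like protein. It had signals of 1047, 726 and 768 in the SP2 RNA against 641, 326 and 289 in the SP1 RNA. The ranges of the RNAs did not overlap. Its log2 ratios were 0.71, 1.16 and 1.41, with a mean of 1.09 ± 0.36 (SD, n = 3), 2.13-fold higher in the SP2 RNA. With median centring in place of loess its ratio was 1.16 and limma no longer called it.

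GhBM356396, the cellulose synthase placed on the array for its known expression, had signals of 463, 681 and 352 in the SP2 RNA against 403, 435 and 201 in the SP1 RNA. The SP2 signal was the higher of the pair on every array, and the ranges over arrays, which ignore the pairing, overlapped. Its log2 ratios of 0.20, 0.65 and 0.81 averaged 0.55 ± 0.32 (SD, n = 3), and limma did not call it. The ratio of Contig4481 exceeded that of GhBM356396 by 0.51, 0.51 and 0.60 on arrays 1, 2 and 3, a difference of 0.54 ± 0.05 that varied little between arrays. The ratio of Contig15578 lay below that of GhBM356396 by much more, with differences of -2.81, -3.54 and -2.40 (mean -2.91 ± 0.58). Its mean difference from Contig4481 was -3.45 ± 0.54.

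**Figure D2:**
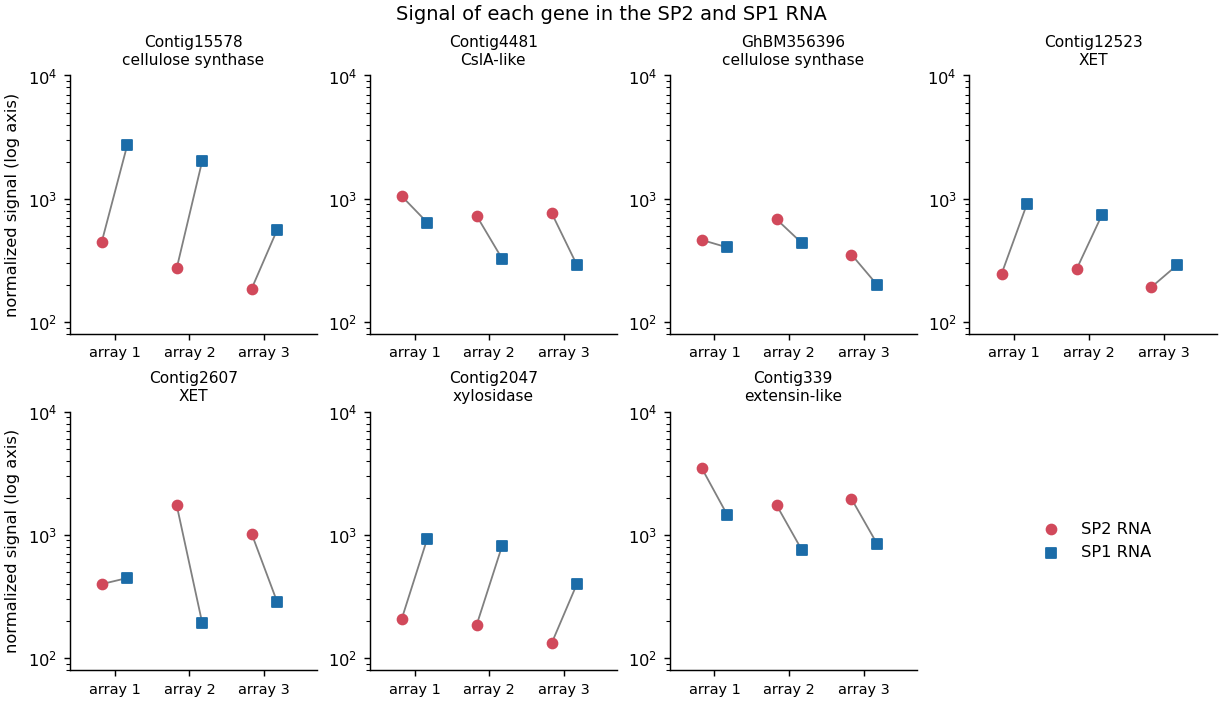
The normalized signal (log axis) of each gene is plotted for the SP2 RNA (circle) and the SP1 RNA (square) of arrays 1, 2 and 3, with a line joining the RNAs of an array. Contig15578, Contig12523 and Contig2047 slope upward from SP2 to SP1 on each array, and Contig2607 changes its slope between array 1 (398 against 446) and array 2 (1736 against 193).

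Of the endoxyloglucan transferases, Contig12523 was lower in the SP2 RNA and Contig2607 was not called. Contig12523, which resembled a carrot enzyme, had signals of 247, 268 and 192 in the SP2 RNA against 913, 740.0 and 288 in the SP1 RNA. The SP2 values stayed within a narrow band. The SP1 value was lowest on array 3, where the dyes of both RNAs were dimmest over all gene spots. Its log2 ratios of -1.89, -1.47 and -0.59 averaged -1.32 ± 0.66 (SD, n = 3), 2.49-fold lower in the SP2 RNA. Limma no longer called it without array 1, at a mean of -1.03, or with median centring, at -1.26.

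Contig2607, which matched an endoxyloglucan transferase of cotton itself, had signals of 398, 1736 and 1023 in the SP2 RNA against 446, 193 and 287 in the SP1 RNA. On array 1 the RNAs were nearly level, and on arrays 2 and 3 the SP2 RNA was far higher. The log2 ratios were -0.16, 3.17 and 1.83. Their mean of 1.61 was exceeded by few genes, with 99.9% of those tested below it, but so was their SD of 1.68 (n = 3), with 99.9% of genes below it and a median SD over all genes of 0.24. Limma did not call the gene. Without array 1 the mean was 2.50 and the gene was called, without array 2 it was 0.84, and without array 3 it was 1.50 and the gene was called. Arrays 1 and 2, which carry the same SP2A code, gave the lowest and the highest of the 3 ratios. Their SP1 codes differ (SP1A and SP1E), and SP2A was in green on array 1 and in red on array 2. The ratio of Contig2607 exceeded that of Contig12523 on each array, by 1.72, 4.63 and 2.42 (mean 2.93 ± 1.52).

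The beta-D-xylosidase Contig2047, similar to an enzyme of peach, had signals of 208, 186 and 131 in the SP2 RNA against 929, 814 and 401 in the SP1 RNA. The signal ranges of the RNAs over arrays did not overlap. Its log2 ratios were -2.16, -2.13 and -1.61, with a mean of -1.97 ± 0.31 (SD, n = 3), 3.91-fold lower in the SP2 RNA, and 0.776% of the genes tested had a lower ratio.

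The extensin-like gene Contig339 had signals of 3480.5, 1739 and 1956 in the SP2 RNA against 1454, 747 and 849 in the SP1 RNA. Each SP2 value was above every SP1 value. Its log2 ratios of 1.26, 1.22 and 1.20 had a mean of 1.23 ± 0.03 (SD, n = 3), 2.34-fold higher in the SP2 RNA, and 0.957% of the genes tested had a smaller SD over arrays. This close agreement of the arrays held for the mean over probes and not for each probe, as the probe values show.

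All but GhBM356396 were represented by 4 oligonucleotides each, spotted once. For Contig15578, Contig12523 and Contig2047 all 4 probes had negative ratios on all 3 arrays, and for Contig4481 all 4 had positive ratios. Sizes differed between probes. The means over arrays ran from -3.09 to -1.82 for Contig15578, from -2.81 to -1.06 for Contig2047 and from -1.73 to -0.85 for Contig12523. The probes of Contig2607 followed each other closely, from -0.52 to 0.28 on array 1, from 3.00 to 3.25 on array 2 and from 1.73 to 1.97 on array 3, so that its spread lay between arrays and not between probes.

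Contig339 showed the opposite. Its probe 1 had ratios of 0.69, -0.47 and -0.17 on arrays 1, 2 and 3, a mean of 0.02, whereas its probe 4 had 1.79, 2.44 and 2.15, a mean of 2.13. Probes 2 and 3 averaged 1.61 and 1.16. The median over probes gave the gene a mean ratio of 1.38. For Contig4481 probes 1 and 2 went together (0.43 and 0.41 on array 1, 1.71 and 1.75 on array 3), and so did probes 3 and 4 (0.92 and 1.07 on array 1, 1.23 and 0.95 on array 3). Whether the probes of a gene also bind related copies was not tested, since no sequence of probes or contigs was used here.

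GhBM356396 had 2 probes under its name, which disagreed on array 1 (0.71 and -0.31) and were positive on arrays 2 and 3. A further spot of the same probe number was named by its number alone. It had ratios of -0.37, 0.41 and 1.07, and counting it as a further probe moved the mean ratio of the gene to 0.49. This was added after the values were seen. Counted by probe number, the array holds 11143 gene models.

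**Figure D3:**
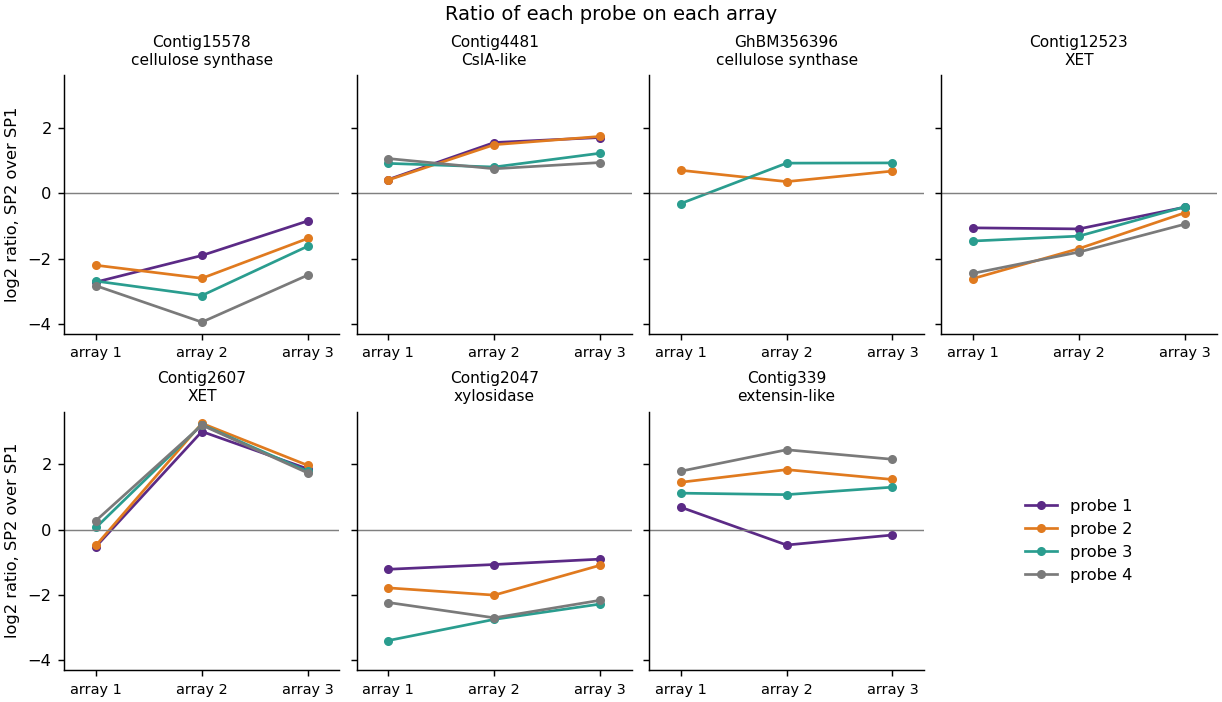
The log2 ratio of SP2 over SP1 RNA (y axis) of every probe is plotted on arrays 1, 2 and 3, with a line for each probe of a gene. The lines of Contig2607 lie on each other, at 3.00 to 3.25 on array 2, and those of Contig339 lie apart, with probe 1 near 0.

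A further 34 genes of the cell wall, chosen here by their descriptions, stood in the table of the study. The table was drawn up from these arrays and from arrays of 10 dpa fiber, so that the list is no independent evidence of a direction. Limma called 7 of the 34 as higher and 3 as lower in the SP2 RNA, beside 3.95% and 8.31% of all genes, and the median log2 ratio was 0.30 against 0.04 over all genes tested. Without array 1, 16 of the 34 were called in place of 10, beside 1999 of all genes in place of 1359. With median centring of the arrays 3 of the 34 were called, beside 329 of all genes.

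Of the enzymes that act on the glucan network, the further XET gene Contig6291 had a small ratio of 0.32 ± 0.08 (SD, n = 3) and was not called. The endoglucanase singleton TMIRS_172_H09.F had ratios of -0.05, 2.00 and 1.36 and the cellulase singleton TMIRS_221_F10.F of -0.10, 2.04 and 1.26 on arrays 1, 2 and 3. Endoglucanases cut glucan chains within the wall. Both singletons thus resembled Contig2607, level on array 1 and higher in the SP2 RNA on arrays 2 and 3, and limma called neither. The expansins, which loosen the wall without cutting its polymers, had means of -0.07 (Contig835), -0.25 (Contig3322) and -0.44 (Contig16061), and 0 of the 3 were called.

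Beta-galactosidases remove galactose from wall polymers. All 5 had positive means, from 0.06 (Contig50) to 1.15, and the singleton with the highest mean was called. Contig5111 had -0.40, 1.15 and 1.16 on arrays 1, 2 and 3. A log2 ratio below 0 on array 1 together with ratios above 1 on arrays 2 and 3, a pattern picked out after the values were seen, was found for Contig2607, for 3 of the 34 further genes (TMIRS_172_H09.F, TMIRS_221_F10.F and Contig5111) and for 55 of 11082 genes (0.496%). Among other glycosidases, the cell wall beta-glucosidase Contig13330 was higher in the SP2 RNA with 0.84 ± 0.29 and a singleton similar to glucan endo-1,3-beta-glucosidases with 0.96 ± 0.23. The arabinosidase Contig5203 had -0.65 ± 0.60, and the family members Contig15796 and Contig2867 had 0.28 and -0.24. Of the 3 genes related to pectin, limma called 0. The polygalacturonase-like gene Contig16638, of a family that cuts pectin, had 0.83 ± 0.58, the pectate lyase Contig4866 -0.10 and the pectin methylesterase inhibitor gene TMIRS_141_E06.F -0.21.

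Genes for the precursors of wall polymers and for glycan synthesis had positive ratios on each array. The transglucosylase Contig16700 was higher with 1.13 ± 0.63 (SD, n = 3) and the GDP-fucose synthetase Contig14846 with 0.99 ± 0.24. The UDP-glucuronic acid decarboxylase Contig18312, whose family makes the xylose donor of hemicellulose synthesis, had 0.48 ± 0.33, the glycosyl transferase Contig4566 had 0.46 ± 0.40, and the callose synthase Contig15581 had 0.38 ± 0.42. These last 3 were not called.

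Structural wall proteins had calls in both directions. Limma called 2 of the 10 as higher and 3 as lower in the SP2 RNA, beside 3.95% and 8.31% of all genes. The hydroxyproline-rich glycoprotein gene Contig16545 was higher with 1.10 ± 0.45 (SD, n = 3), as was a hydroxyproline-rich singleton with 0.62 ± 0.17. The proline-rich protein genes Contig3850 and Contig16208 were lower with -1.94 ± 0.28 and -1.51 ± 0.54, and the glycine-rich protein gene Contig3638 was lower with -1.24 ± 0.53. The second extensin-like gene, Contig14102, had 0.85, -0.46 and 0.44 on arrays 1, 2 and 3, without 1 sign. The other 4 had means from -0.08 to 0.20.

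**Figure D4:**
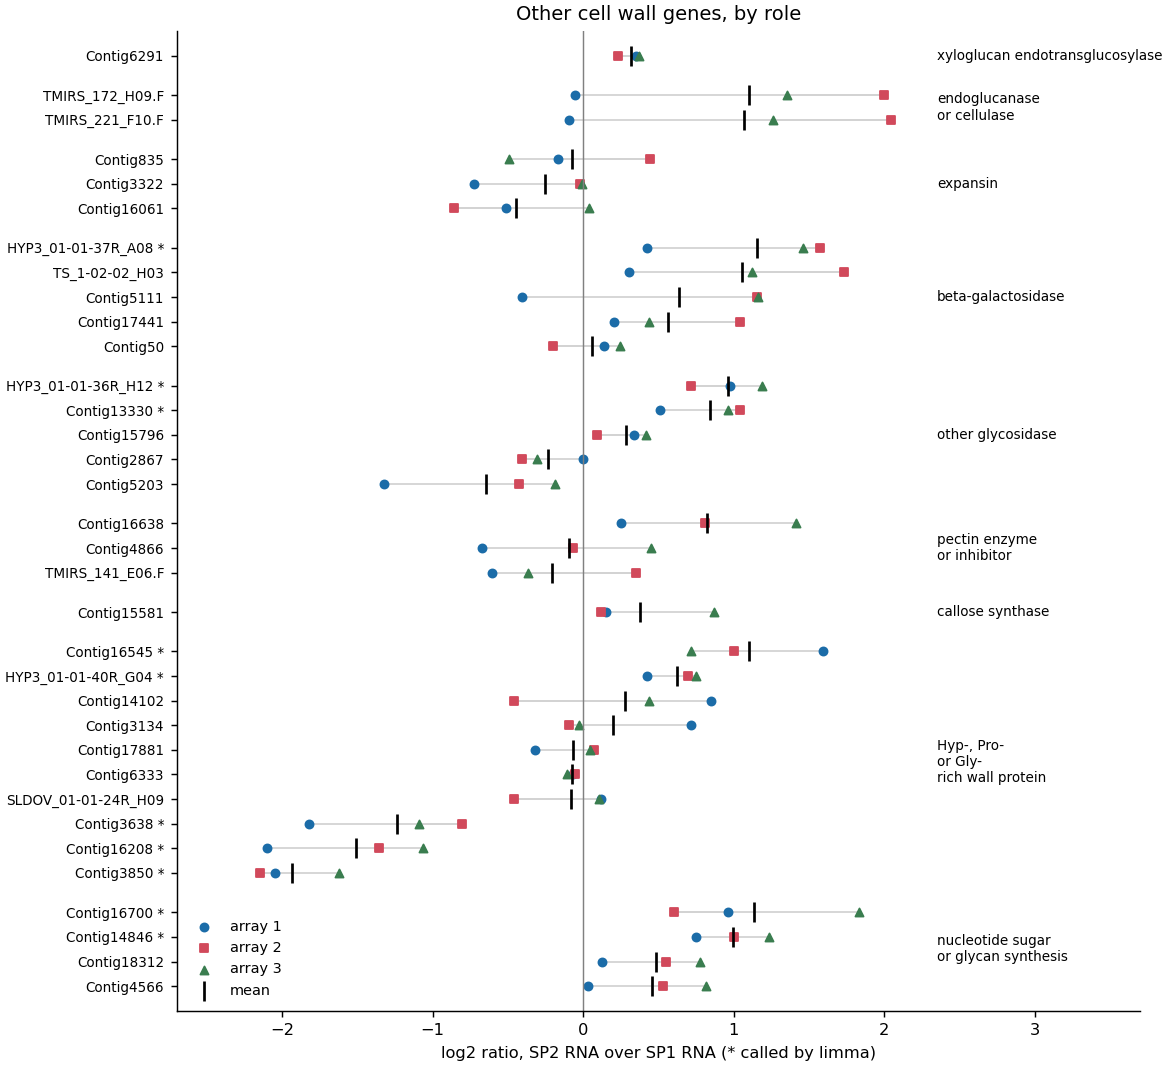
The log2 ratio of SP2 over SP1 RNA (x axis) of the 34 further wall genes is plotted by array, grouped by role, with the mean as a black tick and an asterisk at the 10 genes called by limma. Most beta-galactosidases and sugar-donor genes lie right of 0, and the proline-rich genes Contig3850 and Contig16208 lie between -2.14 and -1.06 on every array.

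Markers of dividing cells and genes known from young fiber were also measured. Both lists were chosen with earlier results of these arrays known, so that their directions are a description and no independent evidence. All 7 markers of dividing cells, histones and topoisomerase II, were called as lower in the SP2 RNA, beside 8.31% of all genes. Their median ratio was -2.26. Their summed signal was 19804 to 29841 in the SP2 RNA against 85428 to 136468 in the SP1 RNA. Of 5 genes known from young fiber, GhFDH, MYB109, MYB2, GhACY and GhRDL, 2 were called as higher in the SP2 RNA, beside 3.95% of all genes. All 5 had positive means, as had 6389 of the 11082 genes tested. The summed signal of the 5 was 31580 to 37043 in the SP2 RNA against 15940 to 23843 in the SP1 RNA. GhACY had ratios of -0.73, 1.84 and 1.78 on arrays 1, 2 and 3, the order also seen for Contig2607, and was not called. Every marker spot was above background in both RNAs. Saturated readings were found for the dividing-cell markers Contig4454 (2) and Contig15160 (2) and for GhRDL (3). Contig4454, with 1 probe, gave 63734 of the summed 136468 in the SP1 RNA of array 1. The called members Contig15578, Contig12523 and Contig2047 had the direction of the markers of dividing cells. Contig4481 and Contig339 had that of the 2 called young fiber genes, GhFDH and MYB109. Since a call has only 2 directions, any called gene shares that of either list, and nothing is read from the match. The part of either list in the ratios was not tested. In tissue RNA of this kind, fewer cells of a type and less RNA per cell cannot be told apart.

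**Figure D5:**
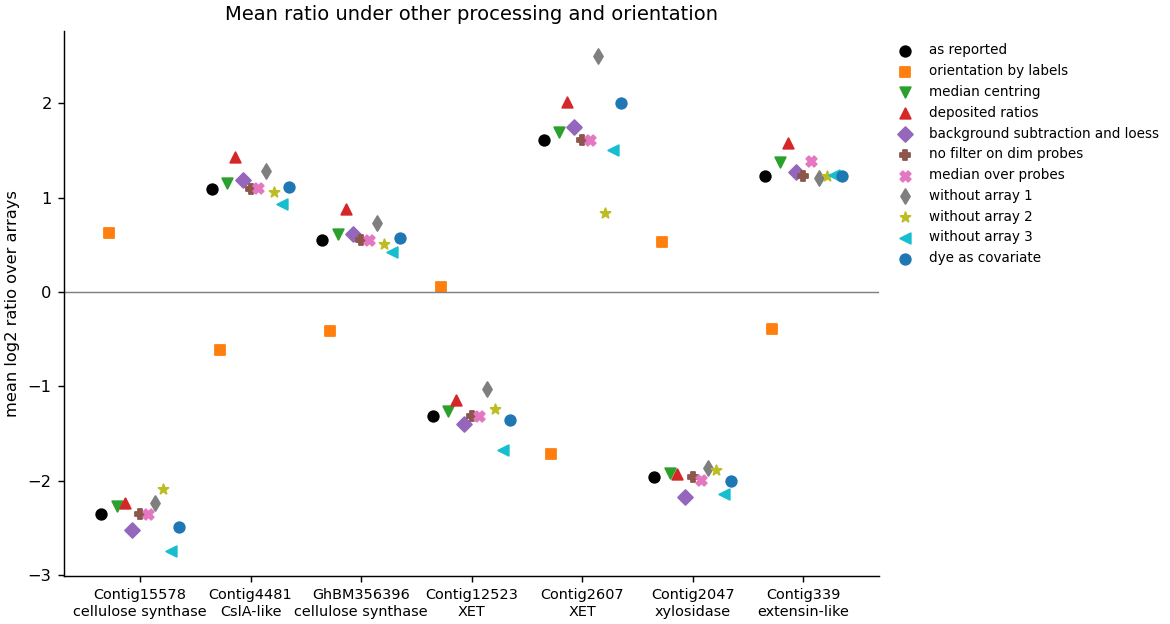
The mean log2 ratio over arrays (y axis) of each gene is plotted under alternatives of processing, with the value as reported in black. The unmoderated test, the removal of saturated spots and the further probe of GhBM356396 are not plotted. The orange squares, for the arrays turned by the labels, are fiber over ovule and lie across 0 from the SP2 over SP1 values of each gene, and Contig2607 ranges from 0.84 to 2.50 when 1 array is left out.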

How the data were processed

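The deposited scanner files of the 3 arrays give the mean intensity of each spot and the level of its surround in both dyes, as the authors obtained them with Agilent Feature Extraction, without background subtraction or dye normalization. A deposited flag of other kind, 0 or 1, marks spots well above background in green. The deposited series table holds log2 of red over green after plain subtraction, computed by the authors, neither centred nor turned (42034 of 42034 gene spots matched within 1e-08 on each array).

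Background was corrected by normexp (limma 3.58.1, R 4.3.3, offset 50), ratios were loess-normalized within arrays on gene spots, with spots then averaged by probe and probes by gene. For red, background was the median of the negative controls plus 2.6 robust SD. Probes above background in either dye on at least 2 arrays were kept (38713 of 40372), which left 11082 genes. Signals of 65000 or more counted as saturated. Arrays were turned by their RNA codes, and limma (lmFit, eBayes) tested each mean against 0 with Benjamini-Hochberg adjustment over all genes. The number of arrays limits the precision. The script was tested on simulated data. Members, lists and the rule for naming genes (all members, all listed wall genes by role, and the 2 tabulated genes nearest to each member) were chosen with earlier results of these data known. Alternatives were the orientation by labels, median centring, the deposited ratios, plain subtraction, no filter, the median over probes, no saturated spots, an unmoderated test, leaving out each array, and, added after seeing the data, a dye term and the further probe of GhBM356396. Older fiber was not analysed here.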

Additional observations from a re-analysis of the deposited data

How the results depend on the processing

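Turning by the labels changes the sign of SP2 over SP1 on arrays 2 and 3 and keeps it on array 1. The mean thus takes the opposite sign wherever arrays 2 and 3 outweigh array 1, which does not tell which RNA is fiber. As fiber over ovule by the labels, the mean log2 ratios were 0.62 for Contig15578, -0.62 for Contig4481, -0.42 for GhBM356396, 0.056 for Contig12523, -1.72 for Contig2607, 0.53 for Contig2047 and -0.39 for Contig339. Limma then called 0 of 11082 genes (539 at an unadjusted p under 0.05), 0 of the 7 members (0 unadjusted) and 0 of the 34 further wall genes (1 unadjusted), and here array 1 runs against the others by construction. By the codes the counts were 1359 genes, 5 members and 10 further wall genes. They were 329, 3 and 3 with median centring and 246, 3 and 2 with the ratios as deposited, whose median over genes was 0.25. In both settings Contig4481 and Contig12523 lost their calls. The unmoderated test called 2 genes, 0 members (4 unadjusted) and 0 further wall genes (8 unadjusted). The cause was not tested. Leaving out an array gave 989 to 1999 genes, 5 to 6 members and 8 to 16 further wall genes. Over all genes 1121 were called higher and 878 lower without array 1, 222 and 767 without array 2 and 300 and 1010 without array 3, in place of 438 and 921. Without array 1 GhBM356396 was called at 0.73. With a dye term Contig2607 was called at 2.00, an alternative chosen after seeing the data that leaves 1 residual degree of freedom. Under the alternatives other than the labels, each member kept its sign. The test was itself paired, because each ratio sets both RNAs of an array against each other. The arrays form a single group, so no further pairing was possible.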

Other observations

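For each member the tabulated genes with the most similar ratios were sought, as the smallest Euclidean distance between the log2 ratios of SP2 over SP1 RNA on the 3 arrays. With 3 arrays such a likeness is a description and says nothing of shared function. Contig2047, the beta-D-xylosidase, was nearest to the proline-rich protein gene Contig3850 (distance 0.11), itself a further wall gene, and to a PHD finger gene, Contig7270 (0.12). Among the tabulated genes GhBM356396 was nearest to Contig18312, the UDP-glucuronic acid decarboxylase (0.13), another wall gene of the list. A phosphatidylinositol kinase gene, Contig6817, was next (0.14). Over all genes tested, 9 lay closer to GhBM356396 than Contig18312 and 17 closer than Contig6817. Contig4481 was nearest to a pyruvate kinase singleton (0.09) and Contig16771, of a mitochondrial oxidoreductase (0.16), and Contig339 to a cytochrome c oxidase subunit gene, Contig16115, and ribosomal protein gene Contig6088 (both 0.16). Contig12523 was nearest to singletons described as a peptide transporter (0.12) and as a relative of the brassinosteroid receptor (0.13). Over all genes tested, 1 lay closer to Contig12523 than the transporter. Contig15578 had more distant neighbours, Contig13852 (0.34) and a singleton described as a Zwille protein (0.37). Contig2607 stood the farthest from any, with Contig10358 at 0.76 and Contig254 at 0.84, both described as proteins of unknown function.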
